A study of Mus musculus with 2 samples.

Results

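Genes of regulated exocytosis and synaptic vesicles were followed across the cells of the mouse small intestine. They were 38 genes, chosen by symbol from the 32285 genes of the count tables. By where their products are best known to act, 22 were grouped as neuronal-type, 13 as epithelial-type and 2 as general. The epithelial-type genes are mostly isoforms of exocrine, epithelial and blood cells. They include Rph3al and Sytl4, Rab effector genes that are also known from endocrine granules. Genes and types were chosen with earlier results of these data known, so they are not independent of the levels below. Gng4, a G protein gamma subunit, stands by itself. Cells were sorted for the red reporter tdTomato, which a Cre recombinase expressed from the endocrine progenitor gene Neurog3 turns on for good in a cell and its descendants. The WT library came from Neurog3Cre; Rosa26tdtomato mice, and the library labelled NFKO from Neurog3Cre-FoxO1 f/f mice, in which the same Cre is meant to delete the transcription factor FoxO1. Each library pooled whole small intestines of 4 to 5 mice aged 4 to 6 weeks, and each group had 1 library. No test between the groups was therefore possible, and every interval below is a 95% interval that covers counting error only.

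Regulated exocytosis is the release of stored granule contents on a calcium signal. A vesicle SNARE (a VAMP) zippers with a syntaxin and a SNAP-25-family protein on the plasma membrane. Calcium-binding synaptotagmins sense the calcium, and Munc13, CAPS and complexin proteins prime and clamp the complex. Rab3 and Rab27 GTPases with their effectors bring the vesicle to the membrane. Enteroendocrine cells release hormone and serotonin granules into the tissue by this machinery, while goblet and Paneth cells release mucus and antimicrobial proteins into the gut lumen.

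Levels are given as CPM, the unique molecular identifiers (UMIs, each marking 1 captured transcript) of a gene summed over the cells of a class and library, per 1000000 UMIs of those cells. Cells that passed the filters numbered 3003 in the WT library and 5292 in the other, with medians of 16883 and 17035 UMIs, and 4 barcodes occurred in both. The cells were clustered without the 38 genes, so that no class rested on their levels. Enteroendocrine-like cells numbered 893 and 1893, goblet-like 838 and 1558, Paneth-like 262 and 242, tuft-like 87 and 140, enterocyte-like 256 and 353, stem-like 303 and 212, and cycling-like 102 and 295, here and below in the order WT, then NFKO. Foxo1 itself was at 11.5 and 12.4 CPM over all cells, a ratio of 1.07 (0.987 to 1.17), and at 25.6 and 22.2 CPM in enteroendocrine-like cells, a ratio of 0.865 (0.750 to 0.999). The count over all cells thus did not show the loss that the label implies, and 3′ reads need not lie in the deleted part. In enteroendocrine-like cells the ratios of Foxo3 and Foxo4 were also below 1, at 0.821 (0.715 to 0.944) and 0.787 (0.657 to 0.946). The study reported lower FoxO1 expression in sorted Tomato-positive NFKO cells, with FoxO3 and FoxO4 unchanged. The libraries also differed in sex, with Xist at 0.383 and 565 CPM and 1802 against 274 cells typed as male, and genotype, sex and library cannot be told apart.

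The neuronal-type genes taken as a sum were far higher in enteroendocrine-like cells than in any other named class of both libraries. The summed level there was 1541 CPM (1518 to 1564) for WT and 1624 CPM (1610 to 1639) for NFKO. In goblet-like cells it was 123 and 157 CPM, in Paneth-like cells 40.2 and 66.6, in tuft-like cells 140.3 and 113, in enterocyte-like cells 58.1 and 68.0, and in stem-like cells 109 and 104. The enteroendocrine-like level was 12.5 times that of goblet-like cells in WT (12.0 to 13.1) and 10.4 times in the other library (10.1 to 10.7). With median-of-ratios size factors in place of total UMIs these ratios were 7.55 and 6.24. The median gene was itself 1.86 and 1.91 times higher in enteroendocrine-like than in goblet-like cells.

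The epithelial-type genes did not share this pattern. Their summed level was 875 and 894 CPM in enteroendocrine-like cells, 1016 and 1223 CPM in goblet-like cells, 833 and 988 CPM in tuft-like cells, 511 and 579 CPM in enterocyte-like cells and 279 and 330 CPM in Paneth-like cells. Enteroendocrine-like over goblet-like cells, this gave 0.861 (0.840 to 0.883) for WT and 0.731 (0.719 to 0.742) for NFKO, or 0.520 and 0.440 with size factors. The median gene of the same comparison, at 1.86 and 1.91, lay above both ratios. Rph3al, a gene of endocrine granules, made up 25.1% and 20.7% of the epithelial-type sum in enteroendocrine-like cells.

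**Figure D1:**
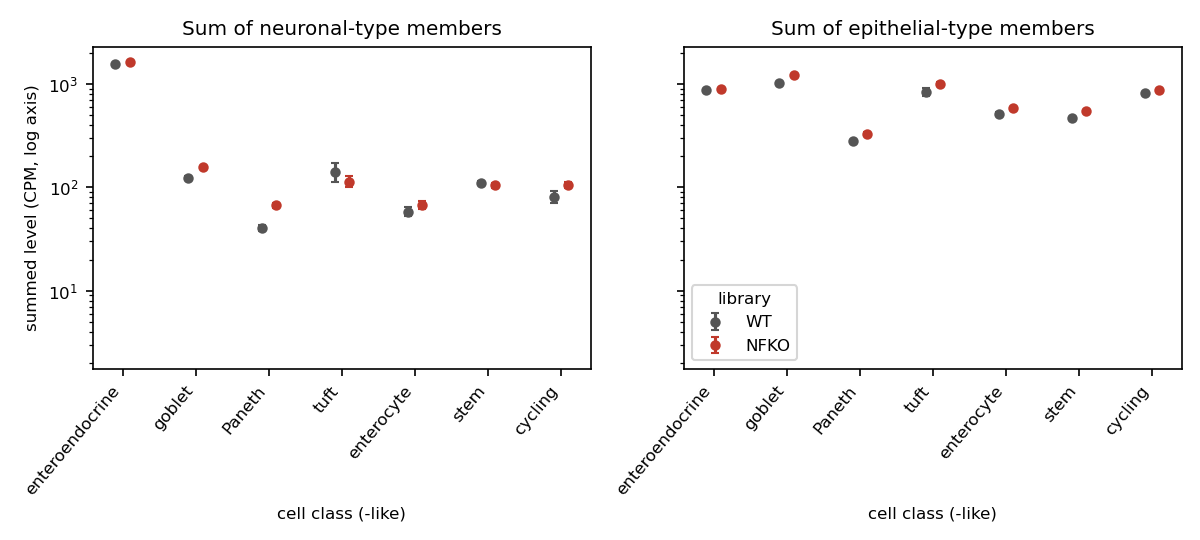
Summed CPM (log axis) of the 22 neuronal-type genes (left) and the 13 epithelial-type genes (right) in each cell class of the WT (grey) and NFKO (red) libraries, with bars for exact Poisson 95% intervals. The neuronal-type sum is 1541 and 1624 CPM in enteroendocrine-like cells and at most 157 CPM in any other class, whereas the epithelial-type sum in goblet-like cells, 1016 and 1223 CPM, lies above that of enteroendocrine-like cells.

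Of the 38 genes, 35 had at least 20 UMIs over the comparison of enteroendocrine-like cells with all other cells. At least 2-fold higher in enteroendocrine-like cells of both libraries were 20 of these 35, against 38.2% of all 16040 genes tested. They were 18 of the 19 neuronal-type genes tested, 1 of the 13 epithelial-type genes (Rph3al) and Gng4. At least 2-fold lower in both were 3, against 9.98% of all genes, and all 3 (Sytl2, Sytl4 and Rab27b) were epithelial-type. The median log2 difference was 4.89 and 5.39 for the neuronal-type genes and 0.76 and 0.49 for the epithelial-type genes, beside 0.90 and 0.73 for all genes tested. Cadps2 was the neuronal-type gene that was not higher, at 14.7 and 11.5 CPM in enteroendocrine-like and 18.2 and 18.5 CPM in goblet-like cells. Syt4 had 3 and 12 UMIs in enteroendocrine-like cells, Sv2b 0 and 1 and Rims1 none, and these genes are not described further.

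**Figure D2:**
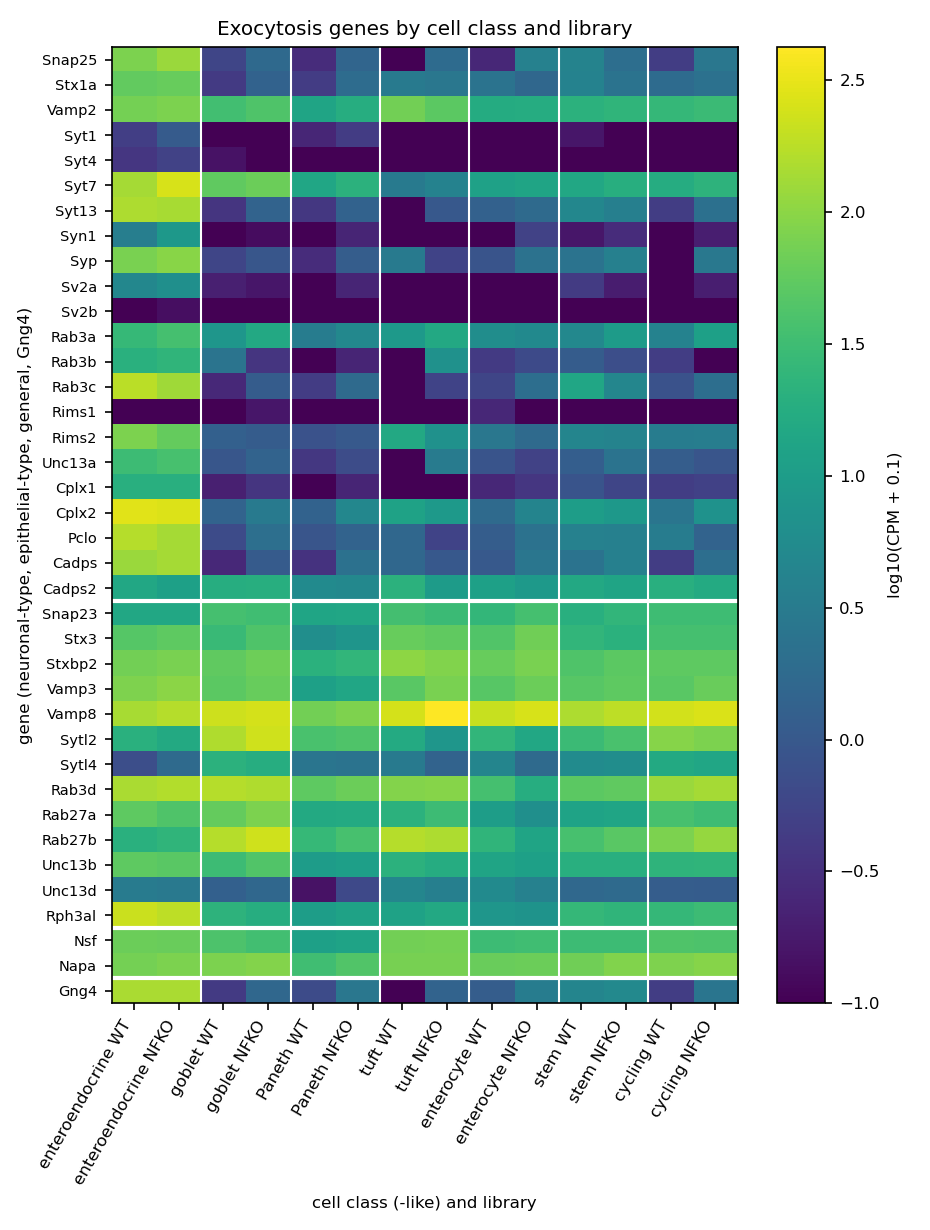
Level of each of the 38 genes, as log10(CPM + 0.1) by colour, in 7 cell classes (columns, WT beside NFKO), with white lines between neuronal-type, epithelial-type and general genes and Gng4. The neuronal-type block is bright in the enteroendocrine columns for most genes, but not for Syt1, Syt4, Sv2b and Rims1. Elsewhere it is mostly darker, with Vamp2, Syt7, Rab3a and Cadps2 as exceptions and with Rab3c and Cplx2 also present in stem-like cells. The epithelial-type block is filled in most classes.

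The plasma membrane SNARE genes of neurons and their relatives differed in breadth. Snap25, the plasma membrane SNARE of neurons, was at 82.4 and 119 CPM in enteroendocrine-like cells and at 0.474 and 1.66 CPM in goblet-like cells. Its ubiquitous relative Snap23 was at 14.6 and 14.8 CPM in enteroendocrine-like cells and at 35.9 and 33.0 CPM in goblet-like cells. The gene used in neurons was thus all but restricted to the endocrine class, and the other was about 2-fold lower there, with levels of 0.613 (0.517 to 0.721) and 0.514 (0.463 to 0.570) times those in all other cells.

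Of the syntaxin genes, Stx1a was low outside the endocrine class and Stx3 was not. Stx1a, the neuronal syntaxin, was at 56.9 and 60.3 CPM in enteroendocrine-like cells and at 0.316 and 1.27 CPM in goblet-like cells, and was 29.6 times (24.4 to 36.0) and 31.7 times (26.9 to 37.5) as high in enteroendocrine-like as in all other cells. Stx3, the syntaxin of apical epithelial membranes, was at 47.3 and 52.7 CPM in enteroendocrine-like, 29.0 and 41.7 in goblet-like and 44.2 and 69.0 CPM in enterocyte-like cells. Per total UMIs, its enteroendocrine-like level was above the goblet-like one, 1.63 times (1.44 to 1.84) and 1.26 times (1.17 to 1.36). The median gene of that comparison, at 1.86 and 1.91, lay above both ratios.

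The sequences upstream of the starts of these syntaxin genes are shown because the genes act at the same step and differ in the breadth of their expression. Both are from RefSeq on GRCm38.p6 and read 5′ to 3′ on the gene's strand, ending 1 base before the start. Capitals mark the letters TATAAA of a TATA box or their reverse complement, which 13.6% of the 32851 RefSeq promoter windows (250 bases before to 50 after a start) hold. Counted by gene, they were in 2 of the 16 neuronal-type genes with a window (Sv2b and Rab3b) and in 1 of the 9 epithelial-type genes (Stx3). Of all genes with a window, 15.7% held them. Stx1a, chr5:135023232-135023481, + strand, had no match, and 66.3% of the bases of its whole window were G or C. Stx3, chr19:11819404-11819653, − strand, had 1 match, on the reverse strand with its first base at -85 from the start, and 44.0% G or C; the median over all windows was 52.7%.
Stx1a: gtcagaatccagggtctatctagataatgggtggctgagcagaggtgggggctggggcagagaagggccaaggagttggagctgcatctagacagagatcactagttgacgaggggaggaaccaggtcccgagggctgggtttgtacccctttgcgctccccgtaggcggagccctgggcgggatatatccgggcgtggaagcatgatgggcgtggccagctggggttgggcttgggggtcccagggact
Stx3: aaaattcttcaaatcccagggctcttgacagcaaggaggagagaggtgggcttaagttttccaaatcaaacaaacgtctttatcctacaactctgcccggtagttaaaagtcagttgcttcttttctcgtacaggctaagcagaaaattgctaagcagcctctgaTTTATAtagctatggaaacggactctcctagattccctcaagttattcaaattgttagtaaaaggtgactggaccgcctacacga

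The vesicle SNARE genes were also found outside the endocrine class. Vamp2, the synaptic form, was at 74.5 and 80.6 CPM in enteroendocrine-like cells, but also at 33.1 and 42.1 in goblet-like and 70.9 and 51.4 CPM in tuft-like cells, and its ratio to goblet-like cells, 2.25 (2.02 to 2.50) and 1.91 (1.79 to 2.05), was near that of the median gene. Vamp8, the form of exocrine granules, was at 142 and 166 CPM in enteroendocrine-like, 220.1 and 248 in goblet-like and 247 and 422 CPM in tuft-like cells. Vamp3 was at 85.2 and 99.8 CPM in enteroendocrine-like and at 50.8 and 61.1 CPM in goblet-like cells.

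Among synaptotagmins the classes differed by gene. Syt13, an atypical synaptotagmin of endocrine cells, was at 152 and 140.5 CPM in enteroendocrine-like cells and at 0.263 and 1.33 CPM in goblet-like cells. Syt7, a high-affinity sensor of slow granule release, was at 139 and 252 CPM in enteroendocrine-like cells and remained at 55.5 and 65.5 CPM in goblet-like cells and 13.8 and 21.0 CPM in Paneth-like cells. The goblet-like level of Syt7 was 40.0% and 26.0% of the enteroendocrine-like level. For comparison, transcripts of 8 hormone groups stood in goblet-like cells at 0.300% and 0.732% of their enteroendocrine-like level. This share was taken as background, on the assumption that goblet-like cells lack these transcripts. Free RNA, leftover doublets and low expression in the cells themselves cannot be told apart as its source. Syt1, the fast sensor of synapses, had 4 and 29 UMIs in all enteroendocrine-like cells.

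The same yardstick was set beside other neuronal-type genes, and not all fell clearly on 1 side of it. In goblet-like cells Vamp2 stood at 44.5% and 52.2%, Rab3a at 30% and 41.8% and Cadps2 at 124% and 161% of the enteroendocrine-like level, far above the hormone transcripts. Snap25 stood at 0.575% and 1.39%, Syt13 at 0.173% and 0.949%, Syp at 0.595% and 0.893%, Rab3c at 0.0891% and 0.809%, Cplx2 at 0.455% and 1.13% and Cadps at 0.130% and 0.726%. Most of these low shares are of the size of the hormone background, and they were not read as expression, though low expression was not tested. In NFKO the shares of Snap25 (1.04% to 1.84%) and Cplx2 (0.913% to 1.39%) lay above the hormone share of 0.732%. So did those of Stx1a (1.49% to 2.89%) and Pclo (1.10% to 1.85%). Unc13a at 2.79% and 3.65% and Rims2 at 1.51% and 1.76% lay above the hormone shares beyond counting error in both libraries. Rab3b did so in WT only, at 11.7% (8.32% to 16.2%) against 1.10% (0.472% to 2.17%) in NFKO. In tuft-like cells the order changed, with Vamp2 at 95.1% and 63.8% and Rab3a at 34.4% and 41.4%, but Syt7 at 2.18% and 1.59%. After thinning each cell to 2000 UMIs, a Syt7 UMI was seen in 22.6% and 34.1% of enteroendocrine-like cells (65.7% and 81.2% before thinning, median depths 12490 and 15440 UMIs) and in 11.1% and 16.4% of goblet-like cells (63.2% and 62.8% before, depths 24234.5 and 21730.0), whereas a Snap25 UMI was seen in 13.7% and 21.0% against 0.119% and 0.329%.

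Priming genes belonged to the endocrine class with a shared remainder. Cplx2, a complexin that clamps the SNARE complex, was at 289.5 and 270.0 CPM in enteroendocrine-like and 1.32 and 3.06 CPM in goblet-like cells. Cadps, which codes for the CAPS protein of dense-core vesicle priming, was at 122 and 139 CPM against 0.158 and 1.01 CPM. Unc13a, the Munc13 form of synapses, was at 30.2 and 36.5 CPM against 0.843 and 1.33 CPM. Its relative Unc13b was at 52.7 and 50.2 CPM in enteroendocrine-like and still at 30.8 and 43.1 CPM in goblet-like cells, and Stxbp2, the Munc18 form of epithelia and blood cells, was at 71.5 and 78.2 against 55.0 and 66.3 CPM.

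The Rab genes differed in the class where they were high. Rab3c was at 177 and 129 CPM in enteroendocrine-like cells and at 0.158 and 1.04 CPM in goblet-like cells. Rab3d, a Rab of exocrine granules, did not separate them, at 146 and 160.5 CPM against 168 and 154 CPM. Rab27a was at 0.897 (0.810 to 0.993) and 0.526 (0.491 to 0.564) times its goblet-like level. Rab27b, which docks granules in exocrine and blood cells, ran the other way, at 19.7 and 23.7 CPM in enteroendocrine-like, 167 and 229 in goblet-like and 169 and 150.4 CPM in tuft-like cells.

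The effectors of Rab27 also parted. Sytl2 was at 20.1 and 15.7 CPM in enteroendocrine-like and at 155 and 228 CPM in goblet-like cells. Sytl4, although also known from endocrine granules, was at 0.643 and 1.72 CPM against 21.6 and 17.9 CPM. Rph3al, which codes for the Rab effector Noc2 of endocrine granules, was at 219.6 and 185 CPM in enteroendocrine-like and at 21.8 and 17.9 CPM in goblet-like cells. The active-zone scaffolds were on the endocrine side, with Rims2 at 80.5 and 59.0 CPM against 1.21 and 1.04 CPM and Pclo at 168 and 138 CPM against 0.580 and 1.98 CPM. So were the vesicle membrane genes, with synaptophysin (Syp) at 79.7 and 94.7 CPM against 0.474 and 0.845 CPM.

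Different clusters held most of the goblet-like class in the 2 libraries, with cluster 2 holding 588 WT cells and 25 of the library labelled NFKO, cluster 0 holding 161 and 739, and cluster 1 holding 89 and 794. Sytl2 was at 143 and 129 CPM in cluster 0 and at 523 and 449.9 CPM in cluster 1, and Rab27b at 155 and 190.4 and at 260.0 and 314 CPM. The higher goblet-like Sytl2 level of the library labelled NFKO was therefore not found within either cluster. Cluster 1 was the shallower of the pair, at medians of 4945 and 7305.5 UMIs.

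Genes used for general vesicle turnover varied less. Nsf, the ATPase that takes SNARE complexes apart, was at 64.3 and 63.4 CPM in enteroendocrine-like and 40.4 and 33.6 CPM in goblet-like cells, and its adaptor Napa at 73.8 and 81.8 against 81.7 and 90.6 CPM. Gng4 was at 144 and 146 CPM in enteroendocrine-like cells and at 0.316 and 1.53 CPM in goblet-like cells, which places it with the neuronal-type genes.

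Markers of other cells that carry this machinery were looked at in the enteroendocrine-like cells. Of the enteric neuron markers, Hand2 and Vip were at 0 in both libraries, and the list summed to 263 and 244 CPM there against 0.422 and 0.975 CPM in goblet-like cells, with Nefm making up 72.2% and 67.2%. Of 6 enteric glia markers 3 were at 0 in each library, Sox10 and Cdh19 in both, and the list summed to 4.50 and 4.06 CPM. Stromal markers were Vim alone at 99.9% of their sum, with Col1a1, Col3a1, Lum and Pdgfra at 0.

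Outside the 38 genes, 92 other genes of the pathway were counted, of which 84 could be tested. This list, too, was chosen with earlier results of these data known. At least 2-fold higher in enteroendocrine-like cells of both libraries were 49 of the 84, beside 38.2% of all genes, and 4 were at least 2-fold lower, beside 9.98%. Ranked by the lower of their folds over other cells in the 2 libraries, the leading genes with UMIs in all 4 sums were Syn2, a synapsin (49.8 and 78.7), Stxbp5l, a tomosyn (47.4 and 104.5), Doc2b, a calcium sensor (41.6 and 51.7), Rimbp2, an active-zone protein (43.8 and 41.4) and Syt5 (35.1 and 47.4). The 4 lower genes were Mlph, Myrip, Myo5c and Syngr2, of which the first 3 code for Rab27 effectors and a myosin. Mlph was at 7.99 and 5.61 CPM in enteroendocrine-like and 63.7 and 78.2 CPM in the other cells, on the same side as Rab27b and its effectors Sytl2 and Sytl4.

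Promoter windows were found in RefSeq for 28 of the 38 genes. They were searched on both strands for TTCAGCACC, the left part of RE1, the element bound by the neuronal-gene repressor REST, because many neuronal exocytosis genes are textbook REST targets. The letters occurred in 0.371% of all windows, or 0.433% of genes with a window, and in those of Syn1 and Unc13a among the 16 neuronal-type genes. No epithelial-type gene of the 9 with a window held them. No member held the longer RE1 core, in which both parts stand at their usual spacing. GTAAACA, the core of FoxO sites, was in 3.65% of all windows, or 4.05% of genes with a window, and in none of the 28. In Unc13a the left part lies on the reverse strand after the start, and a match to the right part (GGACAGC, in 6.56% of windows) ended 8 bases before it. Both stretches are given 5′ to 3′ on the gene's strand, with the matching letters in capitals. Syn1 is chrX:20921005-20921168, − strand, the far part of its window, with the match starting at -232. Unc13a is chr8:71671727-71671750, − strand, with matches starting at 8 and 23 after the start. A match is a description of letters and not a bound site.
Syn1: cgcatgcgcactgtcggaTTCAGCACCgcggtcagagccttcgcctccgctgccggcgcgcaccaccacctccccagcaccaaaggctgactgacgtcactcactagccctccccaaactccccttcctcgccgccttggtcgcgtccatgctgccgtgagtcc
Unc13a: GCTGTCCgcgcccccGGTGCTGAA

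Within the enteroendocrine-like class the neuronal-type sum differed between hormone groups. Cells were assigned by the leading transcript among Gip, Cck, Gcg with Pyy, Nts, Sst, Ghrl, Tac1 and Tph1, the enzyme of serotonin synthesis, when it made up at least 0.2% of the UMIs of a cell. The neuronal-type sum was highest in Tph1-led cells, at 2718 CPM (2529 to 2917) and 3449 CPM (3370 to 3530), and next in Tac1-led cells, at 2055 and 2244 CPM. Both sums leaned on single genes. Syt7 made up 30.5% and 34.5% of the Tph1-led sum, and Rab3c 37.8% and 33.9% of the Tac1-led sum. The other hormone groups lay between 1385 and 1762 CPM for WT and between 1168 and 1556 CPM for NFKO. Low-hormone cells with a Neurog3 UMI had the lowest sum, at 740 and 927 CPM. The epithelial-type sum moved within a smaller range, from 713 to 1000.1 CPM in WT and from 754 to 1071 CPM in the other library over the hormone groups.

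Snap25 and Syt7 marked the Tph1-led cells. Snap25 was at 480.0 CPM (29 cells) and 679 CPM (219 cells) there, at 152 and 159 CPM in Tac1-led cells, and between 37.8 and 68.7 and between 52.3 and 83.0 CPM in the other hormone groups. Syt7 was at 829 and 1191 CPM in Tph1-led cells, at 191 and 419 CPM in Nts-led cells, and at 68.0 and 119 CPM in Tac1-led cells, the lowest of the hormone groups. Tph1-led cells exceeded the next group 3.15 times (2.56 to 3.87) and 4.27 times (3.85 to 4.73) for Snap25, and 4.33 times (3.40 to 5.56) and 2.84 times (2.63 to 3.08) for Syt7. Tac1-led cells were thus second for Snap25 and last for Syt7. Syn1, a synapsin, was at 21.2 and 41.5 CPM in Tph1-led cells and between 0.713 and 6.59 CPM and between 2.75 and 16.9 CPM in the other groups.

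The Rab3 forms of neurons differed in their group pattern. Rab3c was at 777 and 761 CPM in Tac1-led and 335 and 243 CPM in Tph1-led cells, at 69.1 and 98.7 CPM in Ghrl-led cells, and at 2.14 and 2.63 CPM in Gip-led cells. Rab3b was at 83.5 and 59.3 CPM in Nts-led, 48.4 and 52.2 in Tac1-led and 31.8 and 53.9 CPM in Tph1-led cells, and at 1.43 and 0.825 CPM in Ghrl-led cells. Rab3a showed no such group, between 14.9 and 31.8 CPM in WT and between 29.2 and 44.4 CPM in the other library. In the library labelled NFKO the Nts-led and Tph1-led levels of Rab3b did not differ beyond counting error, at a ratio of 1.10 (0.842 to 1.44).

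Other genes peaked elsewhere. Cplx2 was highest in Gip-led cells, at 455 and 397 CPM, and 1.29 times (1.06 to 1.59) and 1.34 times (1.25 to 1.45) the next group. Cplx1 was at 45.0 and 42.6 CPM in Gip-led cells and at 0 and 1.37 CPM in Ghrl-led cells, where the WT count of 0 allows up to 2.14 CPM. Syp was highest in Nts-led cells, at 169 and 173 CPM. Rph3al was highest in Ghrl-led cells among the hormone groups, at 319 and 345 CPM, and lowest in Nts-led cells, at 108 and 66.5 CPM, and low-hormone cells with a Neurog3 UMI held 349 and 302 CPM.

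Stx3, the apical syntaxin, was at 83.5 and 107 CPM in Nts-led and 84.7 and 118 CPM in Tph1-led cells, and between 43.5 and 50.9 and between 37.2 and 54.1 CPM in the other hormone groups. Its Nts-led and Tph1-led levels did not differ beyond counting error. Over the 33 genes with at least 20 UMIs in each library, 17 had the same highest hormone group in both, beside 42.6% of the 11899 genes that met the same minimum, and 17 the same lowest group, beside 33.9%. The highest level was at least 2-fold over the lowest in both for 18, beside 61% of all genes. The highest group was the same and exceeded the second beyond counting error in both libraries for 6, beside 8.57%. These were Snap25, Syt7, Syp, Rab3c, Cplx2 and Rph3al.

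**Figure D3:**
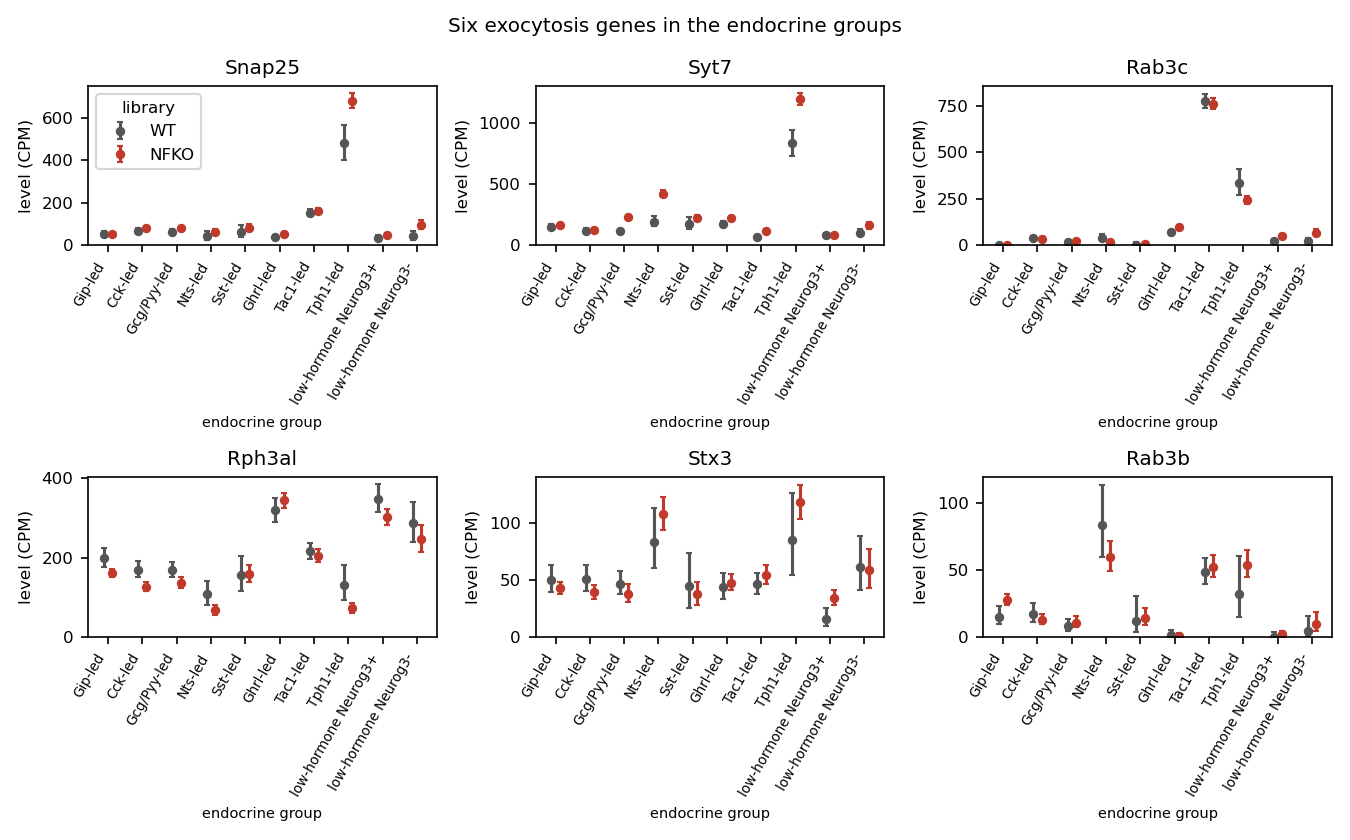
CPM of Snap25, Syt7, Rab3c, Rph3al, Stx3 and Rab3b in the 10 endocrine groups (groups are named by their leading transcript), WT in grey and NFKO in red, with exact Poisson 95% intervals and axes from 0. Snap25 and Syt7 stand out in Tph1-led cells, Rab3c in Tac1-led cells at 777 and 761 CPM, and Rph3al in Ghrl-led and low-hormone Neurog3+ cells.

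The libraries differed in depth within some groups. Nts-led cells had medians of 4936 UMIs and 7.70% mitochondrial UMIs in WT, against 16888 and 3.23% in the library labelled NFKO, and Sst-led cells 7925 and 6.39% against 16433.5 and 2.53%. Cluster 14, of 143 and 108 cells with medians of 3970.0 and 1785.5 UMIs, stayed unnamed because it was shallow, although it passed 8 of 10 endocrine markers. Its neuronal-type sum was 2308 and 1816 CPM, with Cplx2 at 701 and 411 CPM and Pclo at 613 and 437 CPM, and it was counted with the other cells.

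The summed levels hardly differed between the libraries in enteroendocrine-like cells. The ratio of the library labelled NFKO over WT was 1.05 (1.04 to 1.07) for the neuronal-type and 1.02 (0.998 to 1.05) for the epithelial-type sum. By role, the synaptotagmins were at 291 and 394 CPM, a ratio of 1.35 (1.30 to 1.41). Within their sum Syt7 was higher in the library labelled NFKO and Syt13 was not. The SNAREs were at 503 and 593 CPM (1.18, 1.14 to 1.22) and the Rabs and effectors at 931 and 814 CPM (0.875, 0.855 to 0.896). Priming genes were at 603 and 607 CPM (1.01, 0.979 to 1.04). Past 1.5-fold on the side of NFKO were 4 of the 35 genes with 20 UMIs, beside 8.39% of all 14239 genes, and none was at least 1.5-fold lower, beside 8.47%. Among cells typed as male (530 and 105), 4 genes were at least 1.5-fold lower, Stx1a, Rab27a, Unc13d and Cadps2.

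The 4 higher genes were Syt7, Syn1, Sytl4 and Syt1. Syt7 was at 139 and 252 CPM, a ratio of 1.81 (1.72 to 1.92). Syn1 was at 3.40 and 8.56 CPM, a ratio of 2.52 (1.78 to 3.67). Sytl4 rested on 7 and 50 UMIs (2.68, 1.21 to 7.0), and the interval of Syt1 reached below 1 (2.72, 0.954 to 10.6), with 1 cell holding 75.0% of its 4 WT UMIs. Syn1 and Sytl4 lie on the X chromosome, in libraries of different sex. Among male-typed cells (530 and 105) the Syn1 ratio was 2.60, and the part of sex was not tested.

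Snap25 lay just under the 1.5-fold mark, at 82.4 and 119 CPM, a ratio of 1.44 (1.34 to 1.55). It passed the mark with each cell weighted equally (1.76), with secretory products and mitochondrial genes left out of the denominator (1.53) and in male-typed cells (1.96). Rab3a was at 26.3 and 36.4 CPM (1.38, 1.21 to 1.58). The lowest ratios were those of Rab3c, at 0.725 (0.686 to 0.766), and Rims2, at 0.732 (0.675 to 0.795), followed by Sytl2 at 0.779 (0.661 to 0.919) and Cadps2 at 0.782 (0.646 to 0.95). Pclo was at 0.821 (0.776 to 0.868) and Rph3al at 0.842 (0.803 to 0.884). Stx1a, Cplx1 and Gng4 had ratios of 1.06 (0.966 to 1.16), 1.00 (0.853 to 1.18) and 1.01 (0.956 to 1.07).

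**Figure D4:**
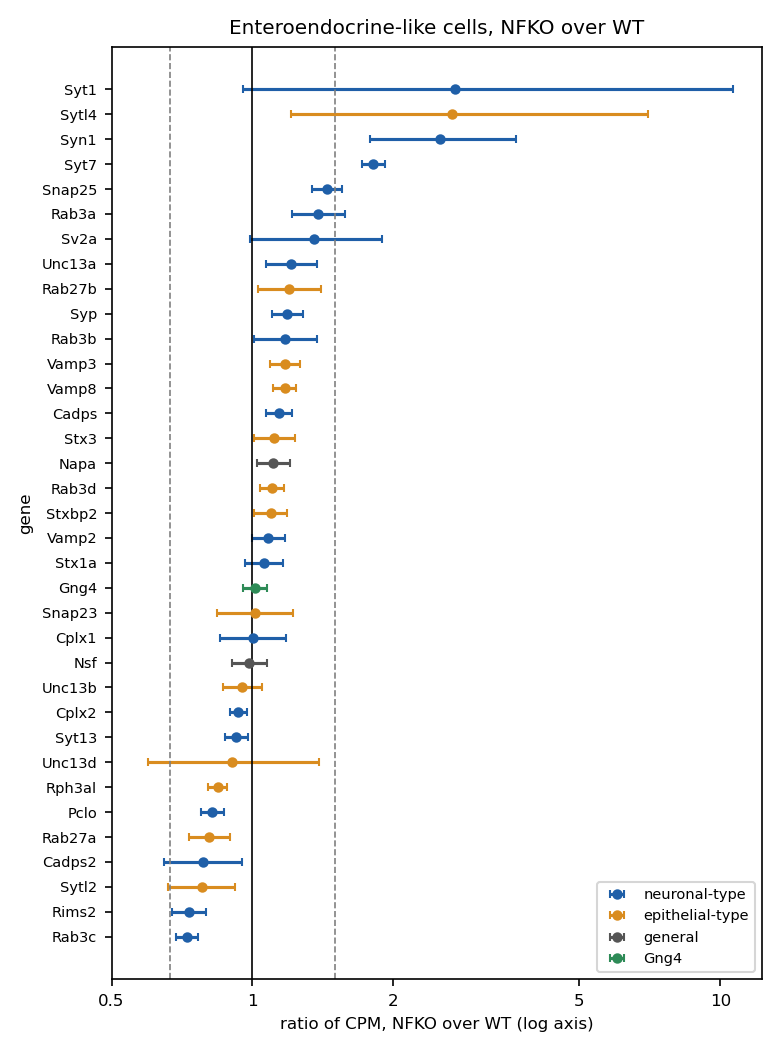
Ratio of CPM, NFKO over WT, in enteroendocrine-like cells (log axis) for the 35 genes with at least 20 UMIs, in order of the ratio, with exact conditional binomial 95% intervals and dashed lines at 1.5-fold either way. Syt1, Sytl4, Syn1 and Syt7 lie beyond the upper line and no gene lies beyond the lower one.

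The mix of hormone groups differed between the libraries, with Tph1-led cells, where Syt7, Syn1 and Syt1 were highest, making up 29 of the 893 WT cells and 219 of the 1893 others. Sytl4 was highest in Ghrl-led cells, at 1.43 and 7.97 CPM. Without Tph1-led cells, a choice made after seeing the data, the Snap25 ratio was 1.05, that of Syt7 1.49, that of Syn1 2.06 and that of the neuronal-type sum 0.982. Each group was also given the same weight in both libraries, its share of the enteroendocrine-like cells of both together. Snap25 was then at 1.28, Syt7 at 1.42, Rab3c at 0.978 and Syn1 at 2.12. The lower pooled Rab3c level was not seen at matched group shares, and 2 genes, Sytl4 and Syn1, were then past 1.5-fold.

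Within groups, the Snap25 ratio was 1.00 (0.777 to 1.31) in Gip-led and 1.04 (0.905 to 1.21) in Tac1-led cells, and 1.41 (1.19 to 1.70) in Tph1-led cells. It was higher beyond counting error in 3 of 10 groups and lower in none. Syt7 was higher beyond counting error in 6 of 10 groups, among them Nts-led cells at 191 and 419 CPM, Gcg/Pyy-led cells at 114 and 229 CPM and Tac1-led cells at 68.0 and 119 CPM, while in Gip-led cells it was at 149 and 163 CPM. Rph3al was lower in 6 of 10 groups, and Pclo and Rims2 each in 5 of 10. Pclo was at 426 and 164 CPM in Sst-led and 287 and 141 CPM in Nts-led cells, the groups that were shallower in WT, and at 89.1 and 89.5 CPM in Tac1-led cells. The part of depth in these differences was not tested.

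**Figure D5:**
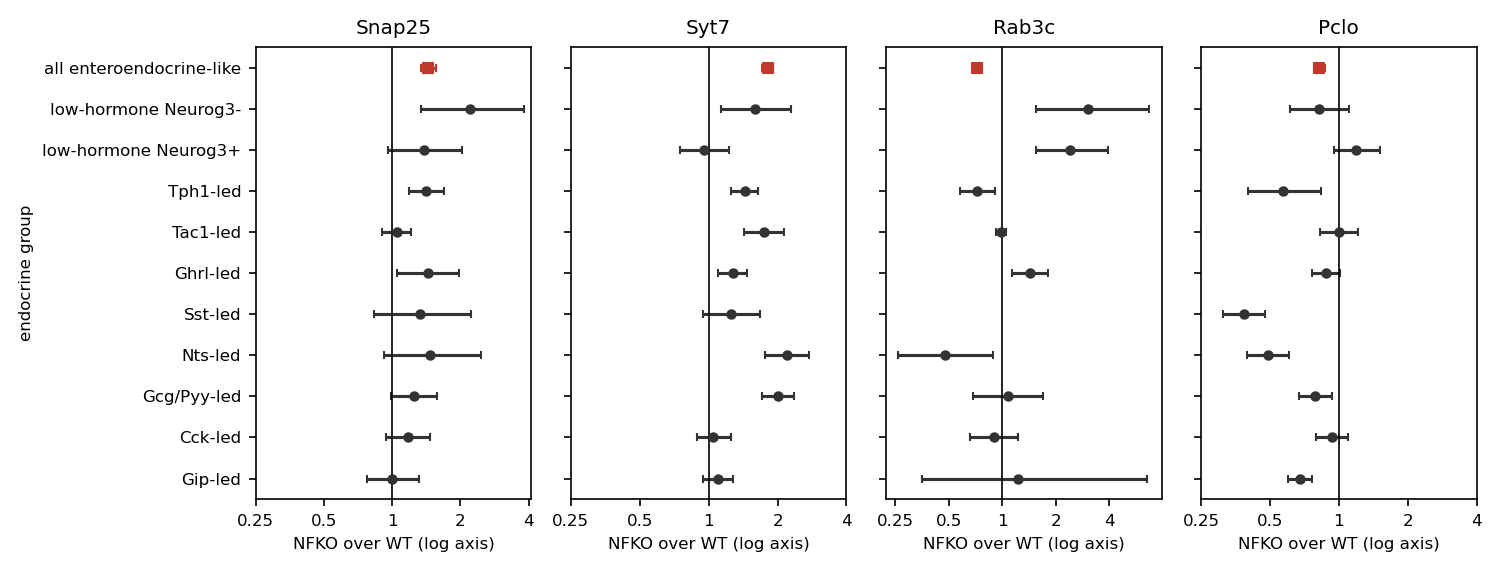
Ratio of CPM, NFKO over WT (log axis), for Snap25, Syt7, Rab3c and Pclo in each endocrine group with at least 20 UMIs (black) and in all enteroendocrine-like cells (red square), with 95% counting intervals. The pooled ratio of Rab3c, 0.725, lies below those of most groups, and the Syt7 ratio lies at or above 1 in all groups but the low-hormone Neurog3+ cells.

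In goblet-like and Paneth-like cells the library labelled NFKO held more neuronal-type UMIs, together with more hormone transcripts. The neuronal-type sum was 1.27 times (1.21 to 1.34) as high in goblet-like and 1.66 times (1.51 to 1.82) in Paneth-like cells, but 0.806 times (0.633 to 1.03) in tuft-like and 0.957 times (0.886 to 1.03) in stem-like cells. Hormone transcripts stood at 0.300% in WT and 0.732% of their enteroendocrine-like level in goblet-like cells and at 0.220% and 1.21% in Paneth-like cells, and Chga with Chgb at 0.125% and 0.606% and at 0.122% and 1.13%. In goblet-like cells 11 of 31 genes tested were at least 1.5-fold higher, beside 10.1% of all genes, and 10 of them were neuronal-type. In Paneth-like cells they were 10 of 28, beside 13.5%. These genes included Snap25, Stx1a, Syt13, Syp, Rab3c, Cplx2, Pclo and Cadps in both classes, all at levels of 0.158 to 4.61 CPM in both libraries. The part of free RNA in these differences, and that of expression in the cells themselves, was not tested.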

How the data were processed

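Tomato-positive epithelial cells of mouse small intestine were profiled as 2 single-cell libraries with the 10x Genomics 3′ chemistry. The deposited values are raw UMI counts for 32285 genes per barcode, made by the authors with Cell Ranger 5.0.1 on mm10 per the labels. The filter asked for 500 genes, 1000 UMIs and a mitochondrial share of no more than 25% (3129 of 5051 and 5632 of 7540 barcodes passed). The automatic Scrublet threshold (scanpy 1.11.5) marked 3 and 0 cells and had not worked, so the highest scores were removed at 0.8% per 1000 barcodes (126 and 340).

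Both libraries were clustered in Seurat 5.3.0 (2000 variable genes, 30 components, 20 neighbours, resolution 0.8) without the 38 genes, the 92 other pathway genes and 10 more (Foxo1, insulin, Iapp and sex-linked genes). A cluster was called X-like when at least 3 markers of X were 2-fold higher and in at least 10% of cells. Those with a median depth under that of each library divided by 3 and at most 1 such marker among their 10 leading genes stayed unnamed, a threshold set after seeing the data. This named 21 of 24 clusters. Names were rebuilt here and may differ from the study's.

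UMI counts were summed per class and library. Intervals (95%) are exact Poisson for levels, exact conditional binomial for ratios and Clopper-Pearson for shares, and cover counting error only, since cells are not replicates. A gene needed 20 UMIs for a ratio to be counted, and 3 UMIs set the limit for a count of 0. Medians over genes used 0.5 added UMIs. With 1 library per group no test was run. The ratio script was tested on simulated data. Values are printed for genes past 2-fold between classes or 1.5-fold between libraries, and others were chosen after their values were seen. Positions are from GENCODE M21, promoters from RefSeq. The 38 genes, their types and all lists were chosen with earlier results of these data known. The value of 1 marker gene is not reported here.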

Additional observations from a re-analysis of the deposited data

Results flagged for a closer look

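For 3 genes the library labelled NFKO was at least 1.5-fold above WT in 1 endocrine group and at least 1.5-fold below it in another, each beyond counting error, and the difference between the groups was not tested. Stx1a was at a ratio of 2.25 (1.11 to 5.32) in Tph1-led cells and 0.561 (0.360 to 0.895) in Sst-led cells. Rab3c was at 3.05 (1.54 to 6.70) in low-hormone Neurog3- cells and 0.474 (0.261 to 0.892) in Nts-led cells. Cadps2 was at 3.79 (1.00 to 32.0) in Tph1-led cells and 0.568 (0.374 to 0.883) in Gip-led cells. These values rest on 141 and 102, 66 and 52, and 58 and 116 UMIs of both libraries together. Sst-led and Nts-led cells were shallower in WT, and the WT library held 29 Tph1-led cells.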

How the results depend on the processing

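No paired analysis was possible because each group has 1 library. Directions between classes held under every alternative run. Enteroendocrine-like over goblet-like cells, the neuronal-type ratio in WT and NFKO was 7.55 and 6.24 with median-of-ratios size factors, 11.1 and 9.0 with secretory products and mitochondrial genes left out of the denominator, 13.6 and 11.1 with classes from each cell's marker score, and 11.7 and 9.48 with doublets kept, and 9.19 in NFKO with each cell equal. The epithelial-type ratio was 0.520 and 0.440, and 0.762 and 0.634, under the first pair of these, and 0.789 and 0.585 with each cell equal. In NFKO it was 0.775 by marker score, 0.751 with doublets kept and 0.695 at resolution 1.6. With median-of-ratios size factors 5 genes, with Snap23 and Vamp8, were at least 2-fold lower in enteroendocrine-like cells.

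NFKO over WT in enteroendocrine-like cells, the neuronal-type sum was 1.02 by marker score, 1.03 with doublets kept, 1.08 with size factors, 1.10 with each cell equal, 1.12 with the smaller denominator, 1.14 in male-typed cells (530 and 105 cells) and, reversed, 0.982 without Tph1-led cells. The epithelial-type sum was 0.963 in male-typed cells and otherwise 1.05 with size factors, 1.05 with doublets kept, 1.05 with the same group weights in both libraries, 1.07 with each cell equal and 1.08 with the smaller denominator. Differences of a few percent between libraries are thus within what processing moves. Genes at least 1.5-fold higher numbered 5, with Snap25, under the smaller denominator or with each cell equal. They numbered 2 with the same group weights in both libraries or without Tph1-led cells. In male-typed cells 4 were at least 1.5-fold lower (Stx1a, Rab27a, Unc13d and Cadps2), and Snap25 and Syt7 were at 1.96 and 2.45. Shares of all genes were not counted in these alternative runs. Leaving out Tph1-led cells, and clusters 13 and 14 from the other cells, was chosen after seeing the data. Tuft-like, Tph1-led and Sst-led WT cells are few, and with 1 library per group the spread between mice is unknown.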
